A study of Saccharomyces cerevisiae with 12 samples.

Results

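The genes described here are RSP5, a yeast ubiquitin ligase, 8 of the arrestin-type adaptors through which it reaches membrane proteins (BUL1, BUL2, LDB19, ALY1, ALY2, ECM21, ROD1 and ROG3) and UBI4, the polyubiquitin gene. They were chosen by name, and all 10 were found among the 7126 features of the expression table and among the 6497 that were tested. RNA was sequenced from 12 cultures of Saccharomyces cerevisiae in 4 groups of 3 libraries. The groups were the RRD1 knockout (KO) strain YSC6273-201925697 with 100 nM rapamycin, the same KO strain without rapamycin, wild type (WT) BY4730 with 100 nM rapamycin, and WT without rapamycin. Rapamycin was added to log-phase cultures in YPD, a rich glucose medium, and the RNA of treated cultures was taken 50 min later. The KO is a single collection strain, so the deletion cannot be told apart from any other difference between the strains. The experiment was repeated on 3 days, but the labels do not say which libraries share a day, and the p-values measure the spread between these libraries.

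Rsp5 is a ligase of the HECT family that attaches ubiquitin to transporters and receptors of the plasma membrane, which marks them for endocytosis and for breakdown in the vacuole. Most of these cargoes lack the PY motif that the WW domains of Rsp5 bind. The arrestin-type adaptors carry that motif and link the ligase to particular cargoes. TORC1, the kinase complex that rapamycin inhibits, controls several adaptors through phosphorylation, for example through the kinase Npr1. Rrd1 is the yeast form of the phosphatase activator PTPA and acts in the rapamycin response.

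In the 6 KO libraries RRD1 was at 0 to 0.203 FPKM (fragments per kilobase of transcript scaled to the mapped reads of the library), against 47.5 to 85.3 FPKM in the 6 WT libraries. LEU2, MET17 and URA3 were listed at 0 in all 12 libraries. HIS3 was present in both strains and averaged 370 FPKM in KO with rapamycin against 668 in WT with rapamycin (log2 fold change -0.88, adjusted p = 0.0052, limma), a call lost with median-ratio scaling (adjusted p = 0.011). The values imply 8440000 to 11780000 mapped reads per library, with 210 to 657 reads for ROG3, the lowest member, and 1849 to 10978 for UBI4. KO libraries 1 (without rapamycin) and 2 (with rapamycin) stood apart from the other KO libraries in the a-factor gene MFA1. It was at 198900 and 320700 FPKM there, against 67170 and 88460 in the other untreated KO libraries and 125100 and 131500 in the other treated ones. In WT it was at 202300 to 261300 FPKM without rapamycin and 451700 to 629200 with it. STE2, another a-mating gene, was at 882 and 1363 FPKM in these KO libraries. The other KO libraries held 530.5 and 537 untreated and 572.5 and 623.8 treated. MFA2 set library 2 apart (104300 against 60630 and 57600) but hardly library 1 (53260 against 49040 and 49280). The part of this difference in the results below was not tested beyond leaving these 2 libraries out. Rapamycin also moved the middle of the whole distribution: the median log2 fold change of all tested features was 0.34 in KO and 0.29 in WT, and it was near 0 after median-ratio scaling, which divides each library by the median ratio of its features to their mean.

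Sequences of 2 kinds are shown, and whether upstream matches bear on the responses was not tested. The first is the repeated coding sequence of UBI4, where short reads could be placed wrongly. In the R64 reference the gene holds 5 head-to-tail ubiquitin units of 228 nt, which share 80.3% to 90.4% of their bases. Of the 67 positions that vary between units, 58 are the last base of a codon. The closest pair of units and the first unit of RPS31, a ribosomal protein gene that also begins with ubiquitin, are given below from RefSeq (R64), 5′ to 3′ on the coding strand. Capitals mark the 43 positions at which the 3 sequences are not all identical.
UBI4 unit 3 (chrXII:64524-64751, minus strand): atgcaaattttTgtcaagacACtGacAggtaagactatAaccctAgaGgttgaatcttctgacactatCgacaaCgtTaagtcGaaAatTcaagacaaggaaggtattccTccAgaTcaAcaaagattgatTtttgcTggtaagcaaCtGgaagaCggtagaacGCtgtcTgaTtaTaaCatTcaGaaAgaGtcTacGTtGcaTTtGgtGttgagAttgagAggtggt
UBI4 unit 5 (chrXII:64068-64295, minus strand): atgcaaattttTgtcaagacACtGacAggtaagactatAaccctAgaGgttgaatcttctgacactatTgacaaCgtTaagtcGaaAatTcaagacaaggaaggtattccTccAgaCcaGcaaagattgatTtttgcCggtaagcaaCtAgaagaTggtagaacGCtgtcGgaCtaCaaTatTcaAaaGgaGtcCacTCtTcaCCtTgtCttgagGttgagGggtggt
RPS31 first unit (chrXII:498947-499174, plus strand): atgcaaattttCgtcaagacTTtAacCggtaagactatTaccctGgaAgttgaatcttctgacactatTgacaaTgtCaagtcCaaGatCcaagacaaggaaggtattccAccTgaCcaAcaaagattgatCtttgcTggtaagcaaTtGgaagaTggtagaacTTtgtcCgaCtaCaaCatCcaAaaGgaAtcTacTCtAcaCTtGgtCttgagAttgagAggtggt

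Counted inside the units, units 3 and 5 share a run of 68 identical bases from their first base on. Unit 3 and the first unit of RPS31 share no run longer than 20. Runs that cross a unit border were cut there, so repeats in the whole gene can be longer. Reads of 100 nt match 1 place in the genome for 90.4% of UBI4 start positions: 100 of its 1047 windows recur, all of them inside UBI4 itself and none in another gene. For the other 9 genes every 100 nt window was unique. No gene annotated in R64 overlaps any of the 10, which matters because the library kit does not keep the strand. Features that could not be joined to R64 were not checked for overlap.

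The second kind is upstream sequence. The 500 nt before each start codon were searched on both strands for GATAAG (the core bound by GATA factors such as Gln3), CCCCT (the stress response element), GAANNTTC (a heat shock element core) and TGACTC (the Gcn4 site). UBI4 held 4 copies of GATAAG, a number reached by 0.1998% of 6005 upstream regions, although 22.7% hold at least 1. It also held 1 CCCCT and 1 GAANNTTC, found in 34.04% and 19.1% of regions. Stretches of UBI4, of the strongly changed adaptors ECM21 and ROD1 and of RSP5 are given 5′ to 3′ on each gene's strand, from RefSeq (R64), with every match in capitals.
UBI4 (chrXII:65308-65607, minus strand, 400 to 101 nt before the start codon): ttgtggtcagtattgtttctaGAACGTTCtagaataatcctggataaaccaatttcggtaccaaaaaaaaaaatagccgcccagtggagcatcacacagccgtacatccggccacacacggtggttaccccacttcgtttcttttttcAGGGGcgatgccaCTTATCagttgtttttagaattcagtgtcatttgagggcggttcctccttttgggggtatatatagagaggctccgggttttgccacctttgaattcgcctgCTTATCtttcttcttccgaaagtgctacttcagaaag
ECM21 (chrII:28400-28599, minus strand, 300 to 101 nt before): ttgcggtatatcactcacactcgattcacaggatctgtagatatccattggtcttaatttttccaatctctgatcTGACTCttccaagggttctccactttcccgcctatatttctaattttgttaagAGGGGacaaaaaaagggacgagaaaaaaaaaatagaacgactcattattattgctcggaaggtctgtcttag
ROD1 (chrXV:364069-364268, plus strand, 300 to 101 nt before): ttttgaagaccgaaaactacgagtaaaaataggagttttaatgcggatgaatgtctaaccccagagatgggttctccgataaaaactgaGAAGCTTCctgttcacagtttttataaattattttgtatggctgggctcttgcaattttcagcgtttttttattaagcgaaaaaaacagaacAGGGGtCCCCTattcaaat
RSP5 (chrV:409889-410088, plus strand, 300 to 101 nt before): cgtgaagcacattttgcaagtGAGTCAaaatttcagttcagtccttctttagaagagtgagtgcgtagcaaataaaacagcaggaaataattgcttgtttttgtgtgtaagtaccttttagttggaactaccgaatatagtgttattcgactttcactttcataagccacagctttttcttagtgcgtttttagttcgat

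The UBI4 stretch shows 2 of its GATAAG matches, both as the reverse complement CTTATC, and the other 2 lie 85 to 74 nt before the start codon. ECM21 held 2 CCCCT (8.13% of regions hold as many), 2 TGACTC (1.43%) and 1 GATAAG in the full window, and ROD1 held 2 CCCCT on opposite strands 119 to 109 nt before its start codon, plus 1 GAANNTTC. RSP5 had 1 TGACTC, seen as GAGTCA, and 1 CCCCT. ALY1 had 1 GATAAG, 1 GAANNTTC and 1 TGACTC, LDB19 had 1 GAANNTTC and 1 TGACTC, BUL1 had 1 TGACTC, ROG3 had 1 CCCCT, and BUL2 and ALY2 had none of the 4. A match describes letters only.

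RSP5 (YER125W, chrV:410189-412618, plus strand, 1 coding exon) was called in no comparison on the values as deposited. It was at 106, 90.0 and 97.1 FPKM in KO with rapamycin, 118, 89.8 and 94.5 in KO without, 81.4, 93.7 and 91.5 in WT with rapamycin, and 86.9, 111 and 118 in WT without. The ranges of all 4 groups overlap. Rapamycin gave a log2 fold change of -0.04 (95% interval -0.34 to 0.27, adjusted p = 0.84, limma) in KO and -0.23 (-0.54 to 0.07, adjusted p = 0.16) in WT. Set against the upward shift of all features, RSP5 lay below the middle: with median-ratio scaling its log2 fold change was -0.39 in KO (adjusted p = 0.017) and -0.52 in WT (adjusted p = 0.0028), and the WT value passed the threshold of 0.01 (Benjamini-Hochberg, over all tested features) used for every call here.

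UBI4 (YLL039C, chrXII:64062-65207, minus strand, 1 coding exon) was the highest of the 10 in every group and rose the most with rapamycin. Polyubiquitin from UBI4 is the source of ubiquitin that yeast draws on under stress. Its level was 881, 915 and 911 FPKM in KO with rapamycin, 211, 201 and 199 in KO without, 965, 1012 and 1035 in WT with rapamycin, and 232, 228 and 265 in WT without. The treated and untreated libraries are far apart in both strains, and within each treatment every KO library was lower than every WT library. The rise was 4.42-fold in KO (log2 fold change 2.14, SE 0.09, adjusted p = 2.9e-08) and 4.15-fold in WT (2.05, SE 0.09, adjusted p = 1.9e-08). Its log2 fold change exceeded that of 97.0% of all tested features in KO and 95.04% in WT, and with median-ratio scaling it was 1.79 and 1.76, still called in both strains.

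The other genes that encode ubiquitin moved the opposite way. RPL40A, RPL40B and RPS31 each encode 1 ubiquitin fused to a ribosomal protein, and with rapamycin their log2 fold changes were -2.13, -2.14 and -2.90 in KO and -2.95, -3.01 and -4.22 in WT (adjusted p from 1.2e-07 to 8.2e-06, all called). If each FPKM is multiplied by the number of ubiquitin units in the gene, UBI4 supplied 59.7%, 50.8% and 47.8% of the ubiquitin-coding total in KO with rapamycin, against 4.73%, 4.14% and 3.98% in KO without. The same share was 67.2%, 73.6% and 76.5% in WT with rapamycin, against 4.17%, 5.43% and 6.12% in WT without. In treated cultures UBI4 thus held 52.8% ± 6.21 in KO and 72.4% ± 4.72 in WT (SD, n = 3 each), and the libraries of the 2 strains did not overlap (exact permutation test, two-sided, p = 0.1, the smallest that 3 against 3 allows). The fusion genes differ between the strains here: RPL40A, RPL40B and RPS31 were higher in KO than in WT with rapamycin with log2 fold changes of 0.89 (adjusted p = 0.0096), 0.998 (0.0023) and 1.33 (0.0032). The call of RPL40A was lost with median-ratio scaling (adjusted p = 0.011), and none of the 3 was called for the interaction (adjusted p = 0.17, 0.092 and 0.077). The summed ubiquitin-coding units were 8638 ± 1123 in KO with rapamycin against 23850 ± 1451 without, and 6939 ± 209 in WT with rapamycin against 23490 ± 3744 without (SD, n = 3 each).

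**Figure D1:**
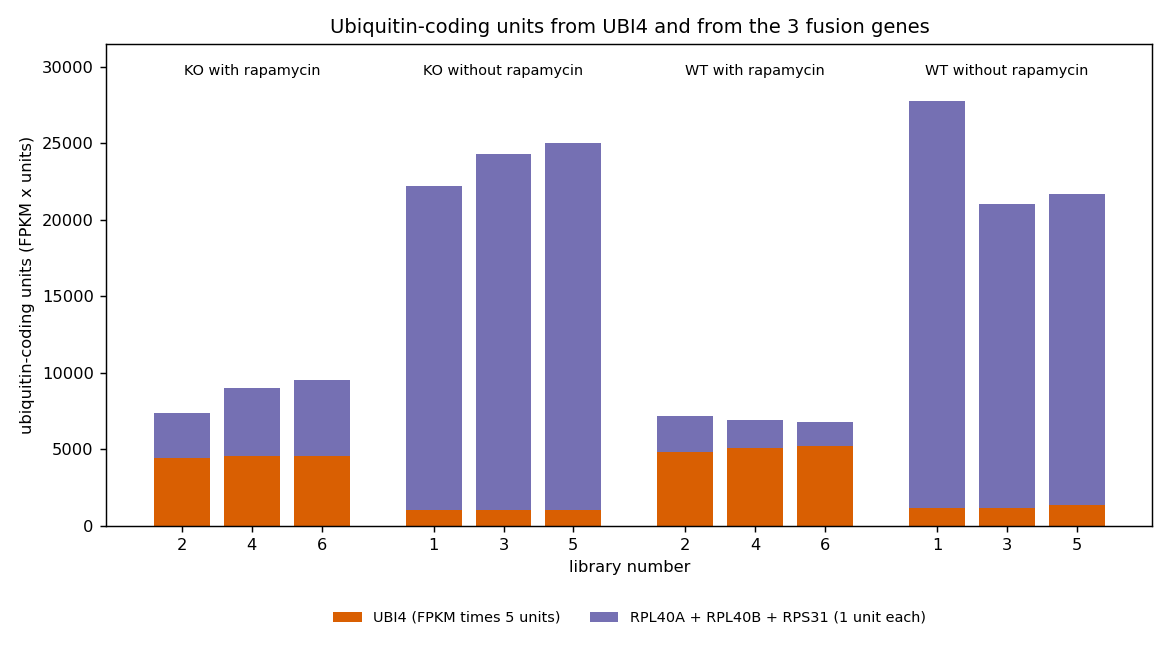
Bars give, for each library (number on the x axis), the ubiquitin-coding units, computed as FPKM times the number of ubiquitin units in the gene, for UBI4 (orange) and for RPL40A, RPL40B and RPS31 together (violet). Treated libraries of both strains are shorter and mostly or about evenly orange, with UBI4 at 47.8% to 76.5% of the total, while untreated libraries stay between 3.98% and 6.12%.

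The 8 adaptors fell into a group that rose with rapamycin in both strains and a pair that stayed near the shift of all features. Of all 10 genes, 7 were called higher and 0 lower with rapamycin in KO, where 36.4% of tested features were called higher and 10.3% lower. In WT 8 were called higher and 0 lower, where 35.9% of features were called higher and 16.3% lower. Treated libraries all lay above untreated ones for 8 genes in KO (50.5% of features) and 9 in WT (46.3%). Without KO libraries 1 and 2 the KO count of calls was 5, ALY1 and ROG3 being lost. Calls over all features fell as well, from 3032 to 2424 of 6494. The median log2 fold change of the 10 was 0.85 in KO and 1.03 in WT, beside 0.34 and 0.29 for all features. With median-ratio scaling 5 were called higher and 0 lower in KO (19.8% and 20.3% of features), and 7 higher and 1 lower in WT (24.1% and 25.0%), the lower one being RSP5. Their median was then 0.50 in KO and 0.75 in WT.

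**Figure D2:**
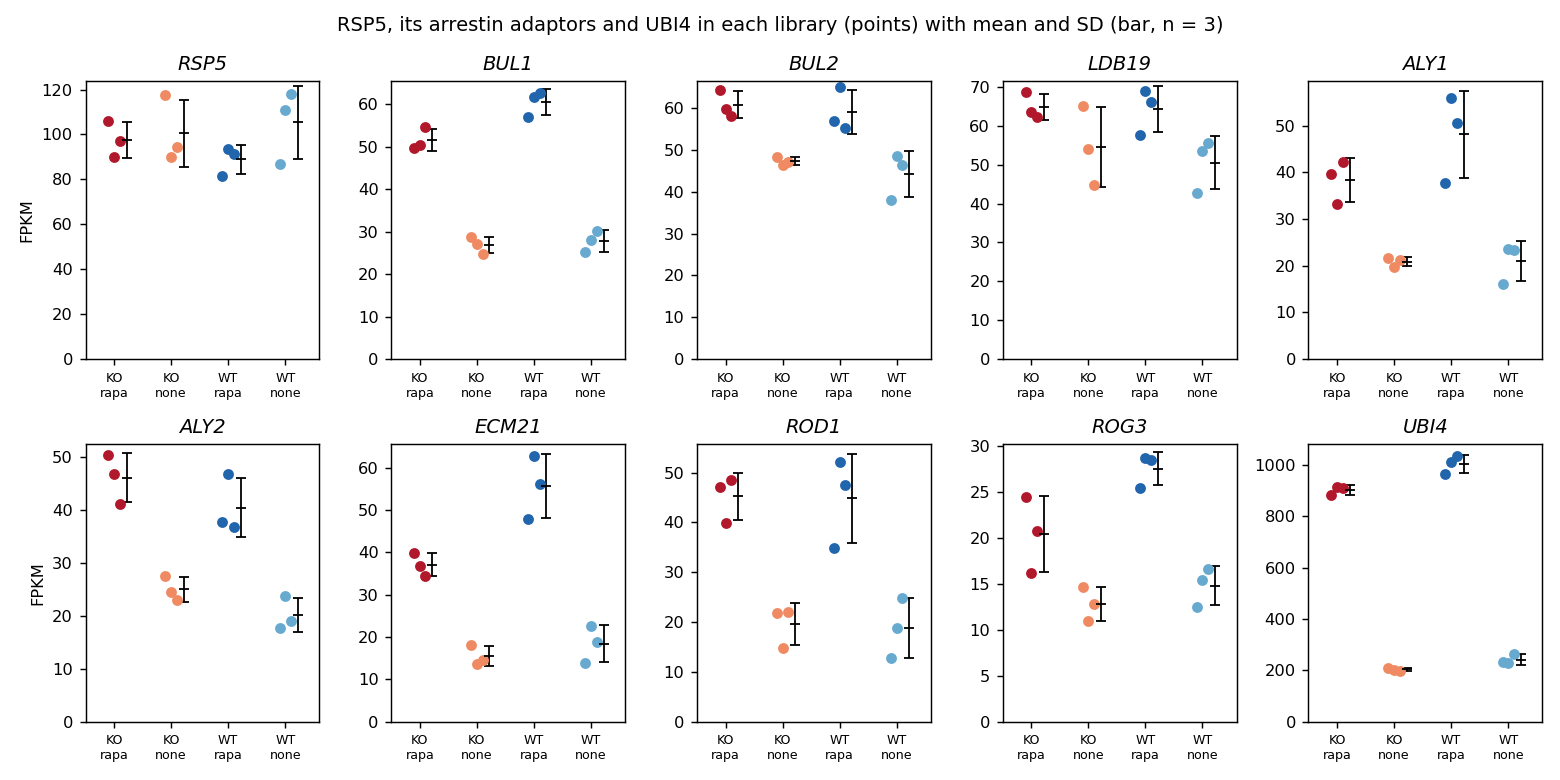
Each panel shows 1 gene, with FPKM from 0 on the y axis and the 4 groups on the x axis (rapa: with rapamycin, none: without). Points are libraries, and the black bar beside them is the mean with SD (n = 3). RSP5 is level across groups, UBI4 is at 881 to 1035 FPKM in treated libraries and 199 to 265 in untreated ones, and ECM21 shows treated KO libraries below all treated WT libraries.

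ECM21 (Art2, YBL101C, chrII:24946-28299, minus strand), an adaptor for amino acid transporters, had the largest rise among the 8 adaptors chosen here. It was at 39.9, 36.8 and 34.5 FPKM in KO with rapamycin, 18.2, 13.7 and 14.5 in KO without, 47.8, 62.8 and 56.1 in WT with rapamycin, and 13.9, 22.7 and 18.8 in WT without. Treated libraries lay above untreated ones in each strain without overlap. The log2 fold change was 1.21 in KO (SE 0.17, adjusted p = 0.00012) and 1.56 in WT (SE 0.17, adjusted p = 1.2e-05), and both calls held under all 23 alternatives tried. Its paralog CSR2 (Art8) rose by 0.93 in KO and 0.85 in WT on the log2 scale, but neither call held with median-ratio scaling (adjusted p = 0.025 in KO and 0.026 in WT). The ratio of ECM21 to CSR2 within a library, which no scaling can change, was 1.76, 2.56 and 2.02 in KO with rapamycin, 1.58, 1.86 and 1.82 in KO without, 3.88, 3.35 and 3.86 in WT with rapamycin, and 2.14, 2.57 and 2.20 in WT without. The ratio was thus highest in treated WT libraries, where it overlapped no other group, but it was not tested between groups.

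ROD1 (Art4, YOR018W, chrXV:364369-366882, plus strand) acts in the endocytosis of the lactate transporter Jen1 and of hexose transporters and is controlled by the glucose-regulated kinase Snf1. It was at 47.2, 39.9 and 48.6 FPKM in KO with rapamycin, 21.9, 14.8 and 22.1 in KO without, 34.9, 52.1 and 47.5 in WT with rapamycin, and 12.7, 18.8 and 24.8 in WT without. The ranges of the strains overlapped in both conditions, and the treated libraries did not overlap the untreated ones. The log2 fold change was 1.18 in KO (SE 0.24, adjusted p = 0.0012) and 1.24 in WT (SE 0.24, adjusted p = 0.00072). Its paralog ROG3 (Art7, YFR022W, chrVI:196833-199034, plus strand), which takes part with Rod1 in down-regulating the pheromone receptor Ste2, was the lowest of the 10 in every group. ROG3 was at 24.4, 16.2 and 20.7 FPKM in KO with rapamycin, 14.6, 10.9 and 12.8 in KO without, 25.4, 28.6 and 28.4 in WT with rapamycin, and 12.4, 15.4 and 16.6 in WT without. It rose by 0.63 in KO (SE 0.16, adjusted p = 0.0064) and by 0.86 in WT (SE 0.16, adjusted p = 0.00076) on the log2 scale. The KO call was lost with median-ratio scaling (0.29, adjusted p = 0.11) and without any 1 of KO libraries 2, 3, 5 or 6 (adjusted p from 0.018 to 0.031), while the WT call held in both respects. Within a library ROD1 stood to ROG3 as 1.93, 2.47 and 2.35 in KO with rapamycin, 1.498, 1.36 and 1.73 in KO without, 1.37, 1.82 and 1.67 in WT with rapamycin, and 1.03, 1.22 and 1.49 in WT without. Treated KO libraries overlapped no other group, but this ratio was not tested between groups.

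ALY1 (Art6) and ALY2 (Art3) are paralogs that act on the dicarboxylic amino acid permease Dip5 and in the recycling of the general amino acid permease Gap1, and both rose in both strains. ALY1 (YKR021W, chrXI:479234-481981, plus strand) was at 39.5, 33.2 and 42.3 FPKM in KO with rapamycin, 21.6, 19.7 and 21.2 in KO without, 37.7, 56.0 and 50.6 in WT with rapamycin, and 16.0, 23.7 and 23.4 in WT without. ALY2 (YJL084C, chrX:274862-278002, minus strand) was at 50.4, 46.9 and 41.1 FPKM in KO with rapamycin, 27.5, 24.4 and 23.0 in KO without, 37.7, 46.8 and 36.7 in WT with rapamycin, and 17.7, 23.8 and 19.1 in WT without. For both genes the treated libraries lay above the untreated ones of the same strain, and the ranges of the strains overlapped in both conditions. ALY1 had a log2 fold change of 0.84 in KO (SE 0.17, adjusted p = 0.0016) and 1.16 in WT (SE 0.17, adjusted p = 0.00014). ALY2 had 0.86 in KO (SE 0.14, adjusted p = 0.00028) and 0.97 in WT (SE 0.14, adjusted p = 8.9e-05). The KO call of ALY1 was lost with median-ratio scaling (0.50, adjusted p = 0.024) and without KO libraries 1 and 2 (0.84, adjusted p = 0.014), and the calls of ALY2 held in both settings.

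**Figure D3:**
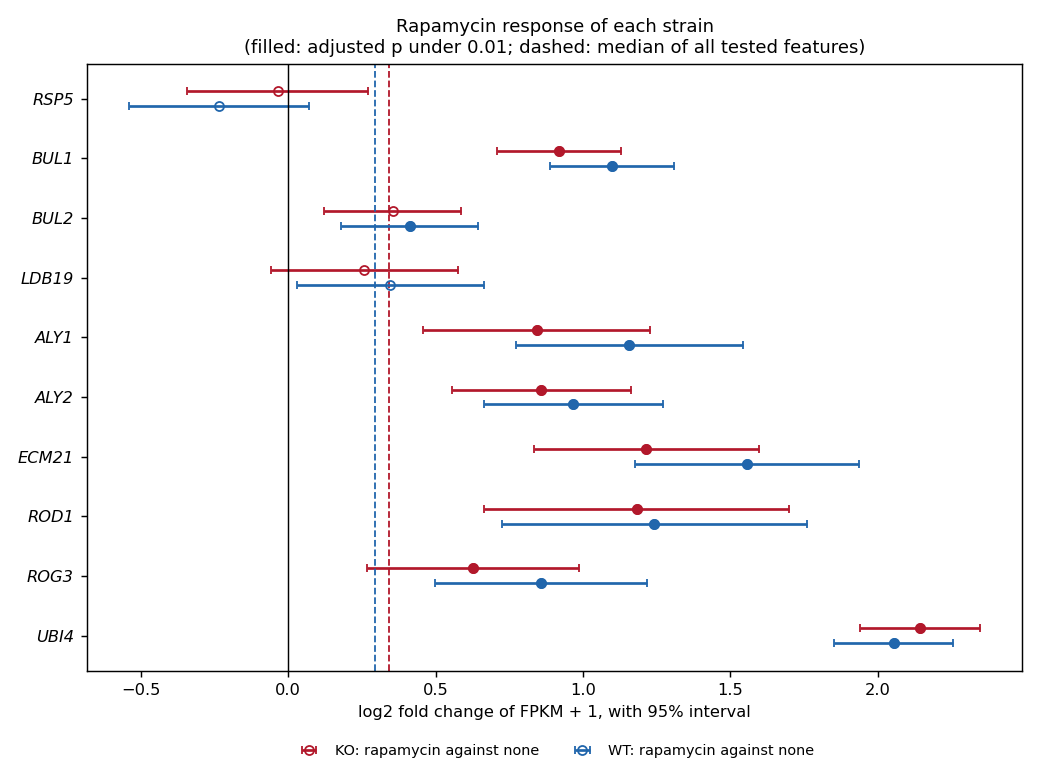
Points give the log2 fold change of FPKM + 1 with rapamycin against without (x axis) for each of the 10 genes, in KO (red) and WT (blue), with 95% intervals from limma and filled points for adjusted p under 0.01. Dashed lines mark the median of all tested features, 0.34 in KO and 0.29 in WT: UBI4 lies far to the right of them, BUL2 and LDB19 lie on them and RSP5 lies to their left.

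BUL1 and BUL2 encode paralogous adaptors that carry Rsp5 to permeases such as Gap1. BUL1 was called higher in both strains and BUL2 in WT, and the difference between the genes was not tested. BUL1 (YMR275C, chrXIII:815651-818581, minus strand) was at 49.8, 50.4 and 54.6 FPKM in KO with rapamycin, 28.6, 27.1 and 24.8 in KO without, 57.1, 61.8 and 62.7 in WT with rapamycin, and 25.1, 28.0 and 30.3 in WT without. BUL2 (YML111W, chrXIII:46942-49704, plus strand) was at 64.5, 59.9 and 58.2 FPKM in KO with rapamycin, 48.3, 46.5 and 47.2 in KO without, 57.1, 65.2 and 55.3 in WT with rapamycin, and 38.1, 48.6 and 46.4 in WT without. The mean of BUL1 was 1.92 times as high with rapamycin as without in KO and 2.18 times in WT, and that of BUL2 1.29 and 1.33 times. The log2 fold change of BUL1 was 0.92 in KO (SE 0.10, adjusted p = 1.2e-05) and 1.10 in WT (SE 0.10, adjusted p = 1.9e-06). That of BUL2 was 0.35 in KO (SE 0.11, adjusted p = 0.013) and 0.41 in WT (SE 0.11, adjusted p = 0.0051), and with median-ratio scaling it was 0.00 and 0.13, called in neither strain. The KO value passed the threshold once WT library 1 was left out (adjusted p = 0.005), and the WT call of BUL2 was lost without WT library 1, 2 or 4 (adjusted p from 0.011 to 0.024). The ratio of BUL1 to BUL2 within a library was 0.772, 0.841 and 0.938 in KO with rapamycin, 0.593, 0.583 and 0.524 in KO without, 1.0, 0.948 and 1.13 in WT with rapamycin, and 0.660, 0.577 and 0.653 in WT without. The pair was therefore close to equal in treated WT, with BUL2 the higher in every other group.

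LDB19 (Art1, YOR322C, chrXV:918606-921062, minus strand), the adaptor for the arginine and methionine permeases Can1 and Mup1, was not called in either strain. It was at 68.7, 63.5 and 62.2 FPKM in KO with rapamycin, 65.2, 53.9 and 44.8 in KO without, 57.8, 69.0 and 66.1 in WT with rapamycin, and 42.7, 53.5 and 55.5 in WT without. Treated and untreated libraries overlapped in KO and were just apart in WT. The log2 fold change was 0.26 in KO (95% interval -0.06 to 0.57, adjusted p = 0.14) and 0.35 in WT (0.03 to 0.66, adjusted p = 0.054), and with median-ratio scaling it was -0.09 and 0.06.

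Since FPKM is per length, the genes can also be ranked within a group. By mean FPKM, UBI4, RSP5 and LDB19 held the top 3 ranks in that order in every group, and ROG3 stood last. The libraries of LDB19 overlapped those of the next gene in every group. Without rapamycin BUL2 followed at 47.3 FPKM in KO and 44.4 in WT, and 4 adaptors (ALY1, ALY2, ROD1 and ECM21) had means between 15.5 and 24.97 FPKM in KO and 18.5 and 21.0 in WT, where most neighbours in the order overlapped. With rapamycin ECM21 was ninth in KO at 37.0 FPKM and sixth in WT at 55.6 FPKM, while ALY2 was sixth in KO at 46.1 and ninth in WT at 40.4. Neighbours between the sixth and ninth ranks overlapped in both strains. The ratio of ECM21 to ALY2 within a library was 0.786 to 0.838 in KO with rapamycin, 0.561 to 0.663 in KO without, 1.27 to 1.53 in WT with rapamycin and 0.783 to 0.983 in WT without. ECM21 and ALY2 had the lowest and highest log2 fold changes of KO against WT with rapamycin among the members (-0.57 and 0.19). Taking the extremes sets the strains apart by choice, so this ratio is a description only. The 8 adaptors summed to 3.74 ± 0.111 times the FPKM of RSP5 in KO with rapamycin against 2.22 ± 0.129 without, and to 4.499 ± 0.193 times in WT with rapamycin against 2.05 ± 0.0627 without (SD, n = 3 each). The treated libraries of KO, at 3.63 to 3.85, lay below those of WT, at 4.37 to 4.72, a difference that was not tested.

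Between the strains, none of the 10 genes was called, with or without rapamycin (limma), and none was called for the interaction, the difference between the rapamycin responses of KO and WT. With rapamycin 8.28% of tested features were called higher and 5.79% lower in KO than in WT, without rapamycin 0.0308% and 0.554%, and for the interaction 0.077% and 0.185%. At an unadjusted p under 0.05 the counts among the 10 were 3, 1 and 0, where 37.1%, 20.1% and 16.8% of all tested features passed. The median log2 fold change of the 10 was -0.07 with rapamycin, -0.02 without and -0.10 for the interaction, beside -0.02, -0.08 and 0.09 for all features. Groups did not overlap for 4 genes with rapamycin, all lower in KO (ECM21, ROG3, BUL1 and UBI4), where 22.7% of features were lower in that way, and for 1 gene without (UBI4), where 18.9% were.

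The difference nearest to a call was that of ECM21. With rapamycin it was lower in all 3 KO libraries than in any WT library, with a log2 fold change of -0.57 (95% interval -0.95 to -0.19, adjusted p = 0.033), and over 24 alternatives the value ran between -0.67 and -0.47 and the adjusted p between 0.0052 (quantile normalization) and 0.11. Quantile normalization called 1163 of 6497 features in this comparison, against 914 as reported. ROG3 followed with -0.43 (-0.79 to -0.07, adjusted p = 0.078), then ALY1 with -0.31 (-0.69 to 0.08, adjusted p = 0.23), BUL1 with -0.23 (-0.44 to -0.02, adjusted p = 0.11) and UBI4 with -0.15 (-0.36 to 0.05, adjusted p = 0.26). ALY2 had 0.19 (-0.11 to 0.49), RSP5 0.13 (-0.17 to 0.44), BUL2 0.04 (-0.19 to 0.27), ROD1 0.03 (-0.49 to 0.54) and LDB19 0.01 (-0.30 to 0.33). These intervals leave room for differences in either direction, widest for ROD1. Without rapamycin the values ran between -0.24 for UBI4 (-0.45 to -0.04, adjusted p = 0.17) and 0.30 for ALY2 (-0.01 to 0.60, adjusted p = 0.26), and the lowest adjusted p was 0.17. For the interaction ECM21 had -0.34 (-0.88 to 0.20) and ALY1 -0.31 (-0.86 to 0.23), and UBI4 had 0.09 (-0.20 to 0.38). The lowest adjusted p over the 10 was 0.55.

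**Figure D4:**
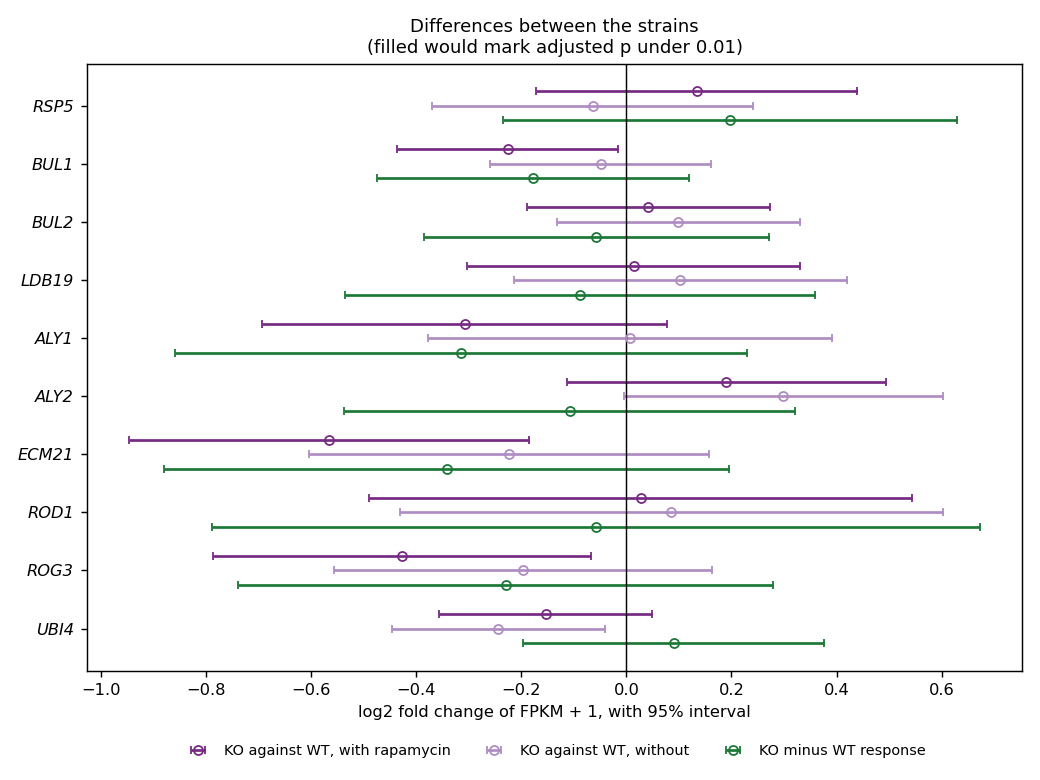
Points give log2 fold changes of FPKM + 1 with 95% intervals (x axis) for the 10 genes: KO against WT with rapamycin (dark violet), KO against WT without rapamycin (light violet), and the KO response minus the WT response (green). All points are open because none had an adjusted p under 0.01, and ECM21 with rapamycin, at -0.57, is the farthest from 0.

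Of 13 other adaptors of Rsp5, 11 were called higher and 0 lower with rapamycin in KO and 10 and 0 in WT, with medians of 0.93 and 0.85, where 36.4% of all features were called higher in KO and 35.9% in WT. With median-ratio scaling 3 (23.1%) were called higher and 1 lower in KO, near the 19.8% of features called higher there, and 8 (61.5%) and 0 in WT, where 24.1% of features were higher. The arrestin-related RIM8 rose by 1.35 in KO and 1.56 in WT on the log2 scale, RCR2 by 1.31 and 1.36, and RCR1 by 1.43 and 1.49 (its KO call was lost with median-ratio scaling, adjusted p = 0.017), while the arrestin gene ART5 stood at -0.02 and 0.01. The name BUL3 belongs in RefSeq to 2 neighbouring genes, YNR068C, which was counted in the list, and BSC5, added here after its values were seen. YNR068C was at 61.0, 47.9 and 44.7 FPKM in KO with rapamycin, 12.8, 12.7 and 13.0 in KO without, 180, 230 and 190 in WT with rapamycin, and 18.7, 23.0 and 24.1 in WT without. It rose with rapamycin by 1.90 in KO and 3.13 in WT on the log2 scale, both called. Between the strains it was the only listed adaptor called, lower in KO with rapamycin. That is 7.69% of the 13 called lower and 0 called higher, beside 5.79% and 8.28% of all features. The log2 fold change of YNR068C was -1.95 (SE 0.14, adjusted p = 1.9e-05), and BSC5 gave -1.77 (SE 0.25, adjusted p = 0.00068). BSC5 was at 35.6, 22.3 and 25.3 FPKM in KO with rapamycin and 66.2, 129 and 101 in WT with rapamycin. The interaction of YNR068C was -1.23 (adjusted p = 0.015) and reached the threshold with median-ratio scaling (-1.29, adjusted p = 0.0066).

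Around the ligase, 2 of 7 ubiquitin, activating and conjugating enzyme genes were called higher and 3 lower with rapamycin in KO, and 2 higher and 4 lower in WT. Those shares were 28.6% higher and 42.9% lower in KO, where 36.4% and 10.3% of all features were called. In WT 28.6% and 57.1% stood beside 35.9% and 16.3%. With median-ratio scaling 1 (14.3%) was higher and 4 (57.1%) lower in each strain. Of all features, that scaling called 19.8% higher and 20.3% lower in KO, and 24.1% and 25.0% in WT. UBC5, a conjugating enzyme, rose by 1.84 in KO and 1.44 in WT and kept both calls under that scaling. UBA1, the activating enzyme, rose by 0.63 and 0.41, but with median-ratio scaling it was at 0.27 (adjusted p = 0.041) and 0.13 (adjusted p = 0.31). Among 10 deubiquitinases and regulators 6 were called higher and 1 lower in KO and 5 and 1 in WT (medians 0.51 and 0.45), beside 36.4% and 35.9% of all features called higher. With median-ratio scaling as many were called lower as higher, 2 and 2 in KO and 3 and 3 in WT. That is 20.0% each way in KO and 30.0% in WT, beside the scaled shares of all features just given. UBP2, whose product removes the ubiquitin chains made by Rsp5, rose by 0.86 and 0.94, and UBP15 by 1.30 and 1.28, and both genes kept their calls under that scaling. DOA4, which recovers ubiquitin from cargo, rose by 0.75 in each strain, and both calls were lost with it (adjusted p = 0.046 in KO and 0.023 in WT). RFU1, an inhibitor of Doa4, had log2 fold changes of -1.62 in KO and -2.72 in WT, both called. Of 13 kinases, phosphatases and binding proteins that act on arrestins, 4 (30.8%) were called higher and 0 lower in KO and 4 and 1 in WT (medians 0.18 and 0.03), a share of higher calls below that of all features. With median-ratio scaling 3 (23.1%) were higher and 2 (15.4%) lower in KO and 3 and 3 (23.1% each) in WT. NPR1, the kinase that phosphorylates Ldb19 and the Bul proteins, rose by 1.57 and 1.77 on the log2 scale, and SIP2, a subunit of Snf1, by 1.06 and 1.23.

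Downstream of ubiquitin, 14 of 18 genes of ESCRT sorting, which draws ubiquitinated cargo into the vacuolar pathway, were called higher in KO and 13 in WT, with 0 lower in both and medians of 0.65 and 0.64, where 36.4% and 35.9% of all features were called higher. With median-ratio scaling those counts were 2 higher (11.1%) and 0 lower in KO, below the 19.8% of features called higher, and 7 higher (38.9%) and 1 lower in WT, above the 24.1% of features. VPS27, which binds ubiquitin on cargo, rose by 1.16 in KO and 1.11 in WT and kept its call in both strains under that scaling, as did SNF8 at 1.14 and 1.09. The OLE1 branch, in which Rsp5 activates the membrane-bound factors Spt23 and Mga2, had 0 of 3 genes called in KO and 1 in WT, the desaturase gene OLE1, which fell by 1.08. OLE1 was at -0.58 in KO (adjusted p = 0.07) and was called lower there too with median-ratio scaling (-0.94, adjusted p = 0.0065).

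Of 26 cargo genes 10 were called higher and 3 lower with rapamycin in KO, and 11 higher and 10 lower in WT (medians 0.03 and -0.36). The KO shares, 38.5% higher and 11.5% lower, were near those of all features, 36.4% and 10.3%, and in WT 42.3% and 38.5% stood beside 35.9% and 16.3%. With median-ratio scaling 7 (26.9%) were higher and 11 (42.3%) lower in KO and 9 (34.6%) and 12 (46.2%) in WT, which turns the balance in both strains. The balance of all features moved too, to 19.8% higher and 20.3% lower in KO and 24.1% and 25.0% in WT. The nitrogen-source transporters rose furthest: GAP1 by 5.91 in KO and 6.39 in WT, the ammonium permease MEP2 by 4.71 and 5.86, and the amino acid permease AGP1 by 4.55 and 4.24 on the log2 scale. TAT1, an amino acid permease, had -1.33 in KO and -2.72 in WT, both called, and MUP1 had -0.87 in KO (adjusted p = 0.024) and -2.94 in WT, called in WT and, with median-ratio scaling, in KO as well (-1.22, adjusted p = 0.0034). Between the strains with rapamycin 6 cargo genes (23.1%) were called higher and 3 (11.5%) lower in KO, beside 8.28% and 5.79% of all features. Among them TAT1 (1.63), MUP1 (1.38) and GNP1 (1.33) were higher and PUT4 (-1.504), MEP2 (-1.37) and GAP1 (-0.97) lower. None of the 26 was called for the interaction, and 1 was with median-ratio scaling.

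**Figure D5:**
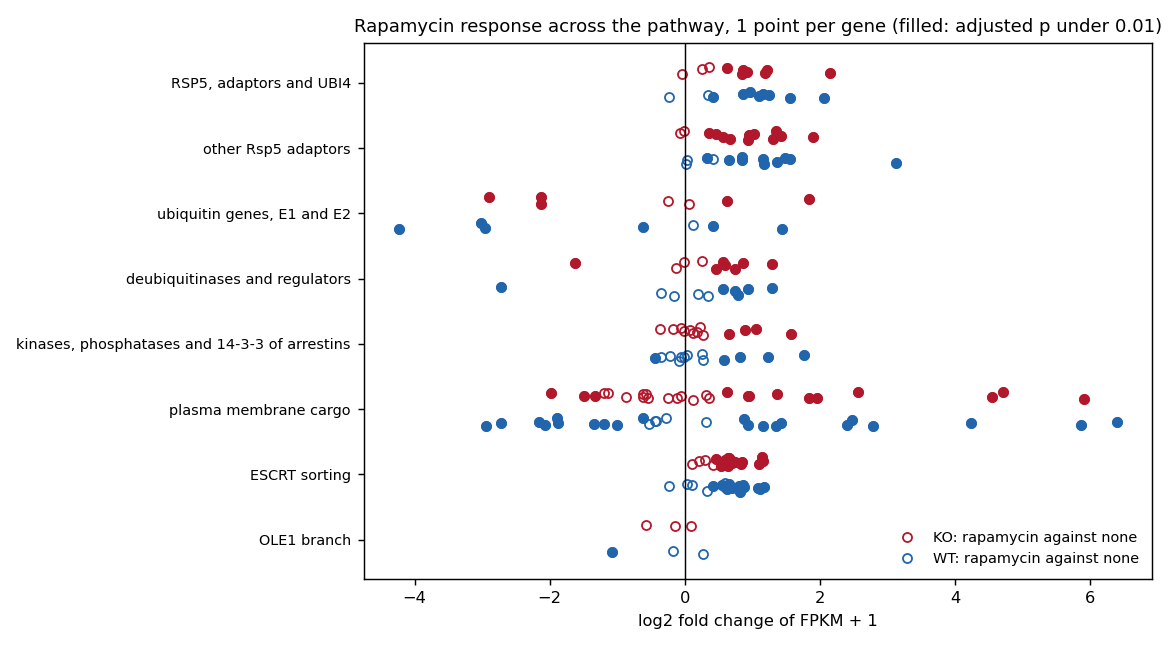
Each point is 1 gene, placed by its log2 fold change of FPKM + 1 with rapamycin against without (x axis), in KO (red, upper row) and WT (blue, lower row) for the 10 genes and each list of pathway genes; filled points had an adjusted p under 0.01. The ESCRT genes and the adaptors lie mostly between 0 and 2, and the cargo genes spread from -2.94 for MUP1 in WT to 6.39 for GAP1 in WT.

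For each gene called in at least 1 comparison, the 3 features with the closest pattern were found by Pearson's r of log2(FPKM + 1) over the 12 libraries. The libraries form treated and untreated clusters, so r mainly records a shared difference between them and is given as a measure of likeness only. UBI4 was closest to ARO9 (0.997), an aromatic aminotransferase gene, AVT7 (0.997), a vacuolar transporter gene, and LEU4 (0.997), a gene of leucine synthesis. ECM21 was closest to YKR096W (0.994), HXT15 (0.993) and GZF3 (0.991), a GATA factor gene, and BUL1 to YGL114W (0.995), ARO1 (0.995) and MRL1 (0.994). ALY1 was closest to SNX41 (0.994), RAD26 (0.991) and GEM1 (0.990), ALY2 to YMR265C (0.982), SKT5 (0.979) and GSC2 (0.972), and ROD1 to RTS1 (0.986), SSD1 (0.984) and SED1 (0.982). ROG3 was closest to ATG18 (0.985), the next open reading frame on its chromosome, RGC1 (0.982) and TGL4 (0.982), and BUL2 to MCM4 (0.980), SRO7 (0.980) and SPO71 (0.976). None of these genes had another member among its 3 closest features, and RSP5 and LDB19, called in no comparison, were not searched.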

How the data were processed

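Total RNA of 12 cultures was made into TruSeq libraries and read as single 100 nt reads. The authors aligned the reads with TopHat and deposited 1 FPKM value per feature and library, made with Cufflinks; their genome build and annotation are not given in the sources used here. The 12 value columns were matched to samples by title, and 0 were left unmapped. FPKM sums ran between 1848118 and 2584116.

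Differential expression was computed with limma 3.58.1 (R 4.3.3) on log2(FPKM + 1), so a fold change understates that of low genes. The 6497 features whose FPKM averaged 1 or more were tested in a single fit to all 12 libraries, with 4 groups, 8 residual degrees of freedom and a trended prior variance. Calls used a Benjamini-Hochberg adjusted p under 0.01 over all tested features. Read counts were not used; depth was inferred from the steps between low FPKM values, searched between 6000000 and 13000000 reads with fragments of 200 ± 80 nt, where 66.7% to 86.5% of values lay within 0.05 of a whole read. The number of libraries limits the precision. Named genes were the 10 genes, their paralogs, strain markers, up to 5 called genes per pathway list and comparison (others only as examples chosen after their values were seen) and the 3 closest features. The genes and lists were chosen with earlier results of these data known. Coordinates and sequences are from RefSeq R64, joined by name (6048 of 7126 features), and may differ from the authors' annotation. Scripts were tested on simulated data. Alternatives varied the pseudocount, filter, scaling, libraries fitted, variance trend, threshold, replicate block and single libraries. Leaving out KO libraries 1 and 2 together was chosen after seeing the data.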

Additional observations from a re-analysis of the deposited data

How the results depend on the processing

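UBI4, ECM21 and ROD1 kept their rise with rapamycin and their calls in both strains under all 23 alternatives. Requiring a 2-fold change left 3 of the 10 genes called in KO and 5 in WT. Of 6497 features 1416 in KO and 1806 in WT were called in that setting. Leaving out 1 library at a time gave 6 to 8 called genes in KO, 7 to 8 in WT and 0 to 0 in each comparison between strains and in the interaction. Over all features these single omissions left 2439 to 3114 calls in KO and 2974 to 3404 in WT. Leaving out KO libraries 1 and 2 gave 5 of the 10 genes in KO, and 2424 of 6494 features. ECM21 was the 1 gene called between strains with rapamycin under quantile normalization and the 1 called at an adjusted p under 0.05. Over all 6497 features, quantile normalization called 1163 in that comparison, against 914 as reported. Same-numbered KO and WT libraries of a treatment did not deviate together: their deviations correlated at -0.168 to 0.127. Whether untreated and treated libraries of a strain pair by number was not tested, and the rapamycin comparisons were fitted without a block. With the replicate block 0 of the 10 genes were called in any strain comparison, and over all features 613 against 914 with rapamycin and 3 against 38 without. Fitting only the libraries compared gave 212 called features with rapamycin and 1 without, and an adjusted p under 0.05 gave 1645 with rapamycin.

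Signs turned for the following values, none called as reported; the cause was not tested. For rapamycin in KO, RSP5 was 0.021 without KO libraries 1 and 2, BUL2 -0.011 with quantile normalization, and LDB19 -0.094 with median-ratio scaling and -0.095 with quantile normalization. For KO against WT with rapamycin, without KO libraries 1 and 2, BUL2 was -0.00026, LDB19 -0.029 and ROD1 -0.0055. Without rapamycin, RSP5 was 0.044 and BUL1 0.056 with median-ratio scaling, BUL1 0.082 with quantile normalization, and without KO libraries 1 and 2 LDB19 was -0.032, ALY1 -0.019 and ROD1 -0.0010. For the interaction, LDB19 was 0.0034 without KO libraries 1 and 2 and UBI4 -0.18 with quantile normalization. Leaving out 1 library, the log2 fold change ran from -0.11 to 0.080 for RSP5 with rapamycin in KO. For KO against WT with rapamycin it ran from -0.0044 to 0.11 for BUL2, -0.061 to 0.066 for LDB19 and -0.14 to 0.14 for ROD1. Without rapamycin it ran from -0.20 to 0.024 for RSP5, -0.12 to 0.012 for BUL1, -0.0043 to 0.17 for BUL2, -0.032 to 0.23 for LDB19, -0.17 to 0.098 for ALY1 and -0.15 to 0.30 for ROD1. For the interaction it ran from -0.13 to 0.046 for BUL2, -0.22 to 0.046 for LDB19 and -0.27 to 0.18 for ROD1.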
